A study of Homo sapiens with 36 samples.

Results

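The small RNAs bound by AGO2-F182del and by AGO2-D619N were compared directly with each other, without the wild-type libraries. HEK293T cells, an established human embryonic kidney line, were transiently transfected with a vector for Flag/HA-tagged AGO2 carrying either F182del or D619N together with pEGFP-C1, a vector for green fluorescent protein. AGO2 complexes were precipitated from the lysates with beads coated with an anti-HA antibody (IP), and 6 of the 36 libraries of the series, 3 replicates of each variant, entered the comparison. All of these cells also kept their own AGO2, which carries no tag, and a sample of each lysate was sequenced as input. The values cover 135 mature miRNAs and are given in RPM, the reads of a miRNA scaled to the total reads of its library. Nothing in the labels says that the replicates were separate cultures, so p-values measure the spread between these samples.

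AGO2 holds 1 strand of a miRNA duplex, the guide, and uses its seed, the bases near the 5′ end, to find target mRNAs. The other strand, the passenger, is normally discarded, and its share in an AGO2 precipitate is a readout of which strand was kept. F182 lies in the hinge next to helix-7, a part of AGO2 that moves when a target RNA pairs with the miRNA. D619 lies in the PIWI domain, at the entrance of a contact site for GW182 proteins, the partners through which AGO2 silences its targets. The study reported reduced GW182 binding with D619N. The comparison asks which miRNAs distinguish the sets bound by these variants.

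The IP libraries with F182del held 101201 to 754009 reads, of which 3226 to 18271 were from mature miRNAs, and those with D619N held 16636 to 73255 reads, of which 2011 to 6895 were from mature miRNAs. Mature miRNAs made up 4.19%, 3.19% and 2.42% of the reads with F182del and 12%, 3.62% and 12.1% with D619N (two-sided exact permutation test, p = 0.2). A comparison of 3 with 3 libraries cannot give a p below 0.1. With the Flag/HA-empty vector mature miRNAs made up 0.362% to 1.02% of the reads of an IP library (174 to 202 reads), and the part of this background in the comparison was not tested. Values were therefore scaled by the median of ratios over the 56 miRNAs above 0 in all 6 libraries, and these scaled RPM are used below. The 7 miRNA families chosen as common in HEK293T were all listed and held 62.0% of the mature reads with F182del and 71.5% with D619N, while none of the families taken as markers of blood, liver, muscle or neurons (Mir-124 and Mir-9) was listed. Of other families linked to neurons, 5 strands of Mir-128 and Mir-218 were listed, with 0.701% and 0.879% of the mature reads. Of these, 0 were called by the rule given below, beside 18.0% of all tested miRNAs. Mir-218-P2_5p and Mir-218-P4_5p carried identical values, so the list is too short to read from this count.

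Of 128 miRNAs tested, 23 were called different between F182del and D619N (18.0%), of which 17 were higher with F182del (13.3%) and 6 were higher with D619N (4.69%). A call needed an adjusted p below 0.05 and a log2 fold change (log2FC, F182del minus D619N, of scaled RPM + 1) beyond 1 in limma. Because Mir-26-P1_5p and Mir-26-P4_5p carried identical values, as did Mir-181-P1a_5p and Mir-181-P1b_5p, the 23 names stand for 21 distinct measurements. Only 10 of the 23 had reads in both variants, and the other 13 were listed at 0 in all 3 D619N libraries. A miRNA was tested if it stood at 1 or more scaled RPM in at least 2 libraries of a group. These 13 met this through F182del alone, and values all at 0 have no spread. The 17, and the 13.3% set beside families and strands below, include these 13. Among miRNAs with a mean of at least 100 scaled RPM, 6 were called higher and 5 lower with F182del. What depth added to the split was not tested. Scaled to the mature miRNA sum instead, 17 were called higher and 3 lower with F182del, and without D619N replicate 1 these counts were 27 and 3. Names follow MirGeneDB without the species prefix, where P and v mark paralogues and variants and an asterisk marks the passenger strand.

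For 5 of the called miRNAs the name led to a single RefSeq sequence (GRCh38.p14), shown here 5′ to 3′ with the seed (bases 2 to 8) in capitals because these are the bases by which each would select targets. All 5 were called in the direction of F182del, those of Mir-197_3p, Mir-615_3p and Mir-576_5p against D619N libraries at 0, and no seed was shared among them.
Mir-577_5p: uAGAUAAAauauugguaccug
Mir-191_5p: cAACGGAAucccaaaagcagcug
Mir-197_3p: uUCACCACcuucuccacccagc
Mir-615_3p: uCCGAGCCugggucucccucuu
Mir-576_5p: aUUCUAAUuucuccacgucuuu

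In GENCODE annotation of GRCh38, Mir-577_5p (chr4:114656774-114656794, plus strand) lies in an intron of UGT8, which encodes an enzyme of galactolipid synthesis. Mir-191_5p (chr3:49020672-49020694, minus strand) lies in an intron of DALRD3. Mir-197_3p (chr1:109598940-109598961, plus strand) falls in an annotated exon of GNAI3, a G protein subunit gene. Mir-615_3p (chr12:54034010-54034031, plus strand) lies in an intron of the HOXC cluster genes HOXC4 and HOXC5, and Mir-576_5p (chr4:109488713-109488734, plus strand) in an intron of SEC24B, a gene of vesicle coat formation.

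**Figure D1:**
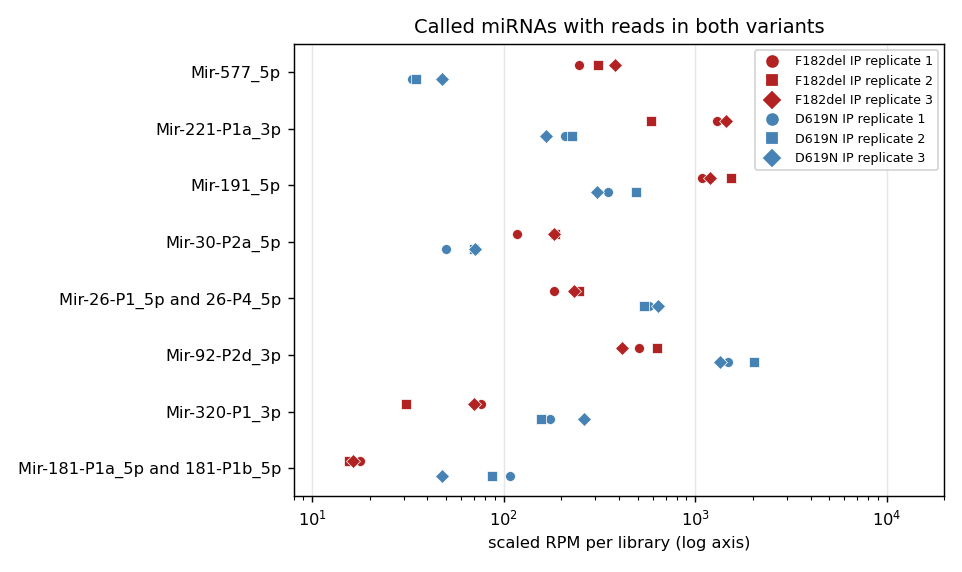
Scaled RPM in each IP library (log axis) of the called miRNAs with reads in both variants, with F182del in red, D619N in blue and 1 symbol per replicate. Mir-577_5p lies at 247 to 381 with F182del and at 33.3 to 47.5 with D619N, and Mir-92-P2d_3p shows the opposite order, with no overlap of the libraries in any line.

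Among miRNAs seen with both variants, Mir-577_5p had the largest called difference. It stood at 247, 310 and 381 scaled RPM with F182del and at 33.3, 34.9 and 47.5 with D619N. Every F182del library was above every D619N library, and the means were 313 ± 66.9 and 38.6 ± 7.76 (SD, n = 3). The log2FC was 2.98 (SE 0.33, adjusted p = 0.00479). The D619N value rested on 4, 2 and 2 reads, or 8 where 68.6 would have been read at the F182del level, a ratio of 8.58 with an exact Poisson 95% interval of 4.35 to 19.9 for counting error alone.

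Mir-221-P1a_3p, of the Mir-221 family that is known to repress the cell cycle inhibitor CDKN1B, was also higher with F182del. Its values were 1301, 588.2 and 1442 scaled RPM against 208, 227 and 166 (means 1111 ± 458 and 200.3 ± 31.0). The lowest F182del library was above the highest D619N library, and the log2FC was 2.37 (SE 0.38, adjusted p = 0.00543). Its passenger, Mir-221-P1a_5p*, which falls outside the naming rule and was chosen after its values were seen, stood at 536, 666 and 776 with F182del and at 100, 0 and 47.5 with D619N. This strand was not called (log2FC 5.26, SE 1.69, adjusted p = 0.0760), with the D619N spread set by a library at 0. It was called in 6 of 15 alternative settings, among them a pseudocount of 10 RPM (log2FC 4.05, adjusted p = 0.00884).

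Mir-191_5p, a miRNA widely expressed in dividing cells, stood at 1089, 1532 and 1190 scaled RPM with F182del and at 350, 488 and 309 with D619N. The groups did not overlap, and the log2FC was 1.74 (SE 0.24, adjusted p = 0.00479). Mir-30-P2a_5p had a smaller difference, at 118, 186 and 182.3 against 50, 69.7 and 71.2 (log2FC 1.32, SE 0.35, adjusted p = 0.0452), and this call was lost in 10 of 15 alternatives.

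The size of these fold changes depends on what the libraries are scaled to. With the RPM as deposited, relative to all reads, the median log2FC over the 128 miRNAs was 0.01, against 1.13 after scaling. Mir-577_5p then had a log2FC of 1.72, Mir-221-P1a_3p of 1.10 and Mir-191_5p of 0.47, and none of these passed the test (adjusted p = 0.134, 0.234 and 0.563). Among the 41 miRNAs with a mean of at least 100 scaled RPM, the scaled median was 0.00.

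The 6 names higher with D619N stand for 4 measurements. Mir-92-P2d_3p was at 506, 635 and 414 scaled RPM with F182del and at 1484, 2021.4 and 1353 with D619N. The D619N libraries were all above the F182del libraries (means 1619 ± 354 and 518 ± 111), and the log2FC was -1.64 (SE 0.24, adjusted p = 0.00479). Mir-26-P1_5p and Mir-26-P4_5p, of a family known to repress the histone methyltransferase EZH2, stood at 183, 248 and 234 with F182del and at 575, 540 and 641 with D619N (log2FC -1.41, SE 0.21, adjusted p = 0.00479). These 3 names kept their call in all 15 alternatives run.

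Mir-320-P1_3p, of a family known for a hairpin made without Drosha, was at 76.6, 31.0 and 70.1 scaled RPM with F182del and at 175, 157 and 261 with D619N. The groups did not overlap (log2FC -1.79, SE 0.46, adjusted p = 0.0434), but the call was lost in 6 of 15 alternatives. Mir-181-P1a_5p and Mir-181-P1b_5p were at 17.7, 15.5 and 16.4 against 108, 87.1 and 47.5 (log2FC -2.15, SE 0.59, adjusted p = 0.0470), and lost it in 9 of 14. The F182del value of this pair rested on 11 reads where 53.6 would have been read at the D619N level.

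**Figure D2:**
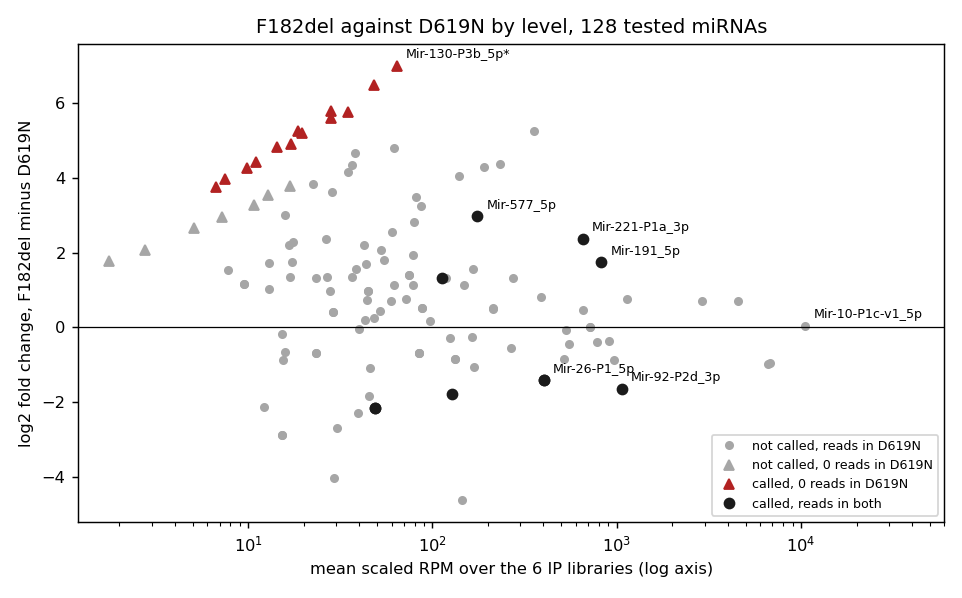
Log2 fold change of each of the 128 tested miRNAs against its mean scaled RPM over the 6 IP libraries (log axis). Grey marks are not called, black circles are called with reads in both variants, and triangles are listed at 0 in all D619N libraries. The red triangles sit at the low end, at means from 6.69 for Mir-196-P3_5p to 64.4 for Mir-130-P3b_5p*.

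The 13 other called miRNAs were listed at 0 in every D619N library, and 5 of them were passenger strands. A value of 3 reads, the limit that a count of 0 allows in a single library, was worth 25, 52.3 and 71.2 scaled RPM with D619N (mean 49.5). With F182del it was worth 23.7 on average. In the 6 libraries a value of 1 read occurred 26 times and a value of 2 reads 89 times, so a listed 0 may stand for a single read. For 5 of the 13 the F182del mean lay above the D619N limit, and for the other 8 it lay below it.

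Mir-130-P3b_5p*, a passenger strand, was at 123.7, 108 and 154 scaled RPM with F182del (94 reads in all). It was at least 2.60-fold higher than the D619N limit, and at least 2.09-fold when any 1 library was left out. Mir-374-P2_3p* was at 159, 61.9 and 70.1 with F182del (61 reads), at least 1.96-fold higher and at least 1.33-fold without any 1 library. Mir-197_3p (47.1, 139 and 23.4), Mir-30-P1d_3p* (70.7, 61.9 and 37.4) and Mir-193-P1a_5p* (106, 31.0 and 32.7) were higher by at least 1.41-fold in the case of Mir-197_3p and 1.14-fold in the others, and these bounds did not hold with every library left out.

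The 8 whose F182del mean lay below the D619N limit were Mir-615_3p, Mir-17-P4d_3p*, Mir-19-P1a_3p, Mir-188-P3_5p, Mir-450-P3_5p, Mir-576_5p, Mir-196-P4_5p and Mir-196-P3_5p. Their F182del means ran from 13.4 for Mir-196-P3_5p to 39.0 for Mir-17-P4d_3p*. The 3 D619N libraries together held 0 reads of each of these 8. At the F182del level, 2.94 (Mir-196-P3_5p) to 8.57 reads (Mir-17-P4d_3p*) would have been read there. No fold bound could be given from the mean limit of a single library, so the size of these differences was not measured. All 8 lost the call with a pseudocount of 50 RPM, a setting chosen after the data were seen. Under it, 18 miRNAs were called higher and 5 lower with F182del. No miRNA tested was at 0 in all F182del libraries, while 20 of the 128 were at 0 in all D619N libraries. The number of miRNAs listed at 1 RPM or more was 125, 101 and 132 with F182del and 105, 80 and 77 with D619N (two-sided exact permutation test, p = 0.2), beside the difference in depth given above.

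**Figure D3:**
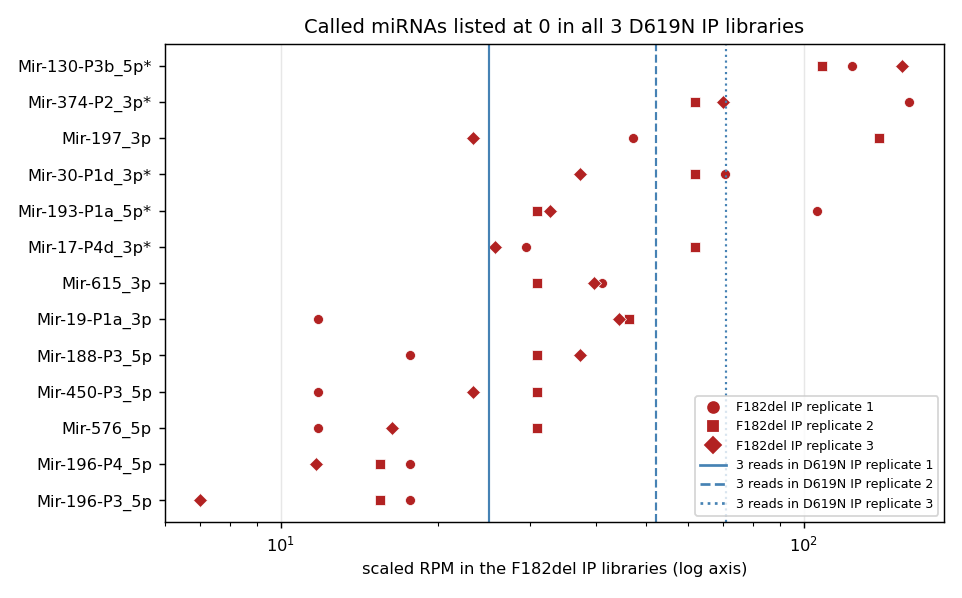
Scaled RPM in the 3 F182del IP libraries (log axis) of the 13 called miRNAs listed at 0 in all D619N IP libraries. The vertical blue lines mark what 3 reads were worth in each D619N library (25, 52.3 and 71.2), and the F182del points of Mir-130-P3b_5p* all lie to the right of them.

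The rarest miRNAs were also left out. Among the 41 miRNAs with a mean of at least 100 scaled RPM, 11 were called (26.8%), 6 higher and 5 lower with F182del. They included Mir-577_5p, Mir-221-P1a_3p, Mir-191_5p, Mir-92-P2d_3p, the Mir-26 pair and Mir-320-P1_3p, which are 7 of the 8 main calls that reached this level. The Mir-26 pair counts as 2 of the 11, and the scaling is centred on miRNAs present in all 6 libraries.

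The same contrast was read from shares of the mature miRNA reads, which scale each library to its mature miRNA sum. A larger share of an abundant family thus lowers the shares of the others. The Mir-92 family, which has members in the Mir-17 to Mir-92 cluster known for promoting proliferation, held 27.0%, 23.7% and 18.2% of these reads with F182del and 38.0%, 37.9% and 44.4% with D619N. The means were 23.0 ± 4.45% and 40.1 ± 3.73%, with 31.4 ± 5.93% for wild-type AGO2. Of its 6 listed strands, 1 was called higher with D619N (Mir-92-P2d_3p), beside 4.69% of all tested miRNAs. By sign, 4 were fitted higher with D619N and 2 with F182del. Of the latter, Mir-92-P1d_3p stood at 1437 ± 526 scaled RPM with F182del and 830 ± 290 with D619N (log2FC 0.77, SE 0.38, adjusted p = 0.175). The median log2FC of the family was -0.97 against 1.13 over all tested. Over the 41 miRNAs with a mean of at least 100 scaled RPM the median was -0.0013, against -0.97 for the 4 strands of the family at that level. Mir-92-P1a_3p and Mir-92-P1c_3p, its most abundant strands, passed the test but stayed just inside the fold threshold (log2FC -0.96 and -0.97, adjusted p = 0.0448 and 0.0434). These strands had nearly the same values, and whether they hold the same reads is not known. With Mir-92-P1c_3p and the repeats of identical values left out, the family held 15.6 ± 3.26% and 28.8 ± 3.42%.

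The Mir-221 family held 3.69%, 2.57% and 5.37% of the mature miRNA reads with F182del and 0.653%, 0.490% and 0.597% with D619N, with a wild-type mean of 2.81 ± 0.585%. Of its 3 strands 1 was called higher with F182del, beside 13.3% of all tested miRNAs. All 3 were fitted higher with F182del, as were 88 of the 128 tested. The Mir-26 family held 0.723%, 0.992% and 1.21% against 2.03%, 2.34% and 2.69% (wild type 1.86 ± 0.258%). With these repeated entries left out, among them Mir-26-P4_5p, the Mir-26 family held 0.579 ± 0.157% and 1.49 ± 0.229%. Its rare strand Mir-26-P2_5p was fitted the other way, on 23 reads with F182del and 2 with D619N (log2FC 1.73, SE 1.84, adjusted p = 0.515). In both families the libraries of the variants did not overlap, as was the case for 58 of the 128 single miRNAs (45.3%), 38 with F182del above and 20 with D619N above.

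Some other families lay apart with few calls. The Mir-17 family had 0.769% to 1.23% of the mature reads with F182del and 0.199% to 0.527% with D619N, with all 8 strands fitted higher with F182del and 1 called, a share near the 13.3% of all tested miRNAs. The Mir-30 family had 1.74% to 2.93% against 1.02% to 1.44%, with 2 of 9 called higher with F182del, of which Mir-30-P1d_3p* was at 0 with D619N, beside the same 13.3%. The Mir-320 family had 0.0620% to 0.186% against 0.363% to 0.746%. Of its 3 strands 1 was called higher with D619N, beside 4.69% of all tested miRNAs. Mir-320-P2a_3p and Mir-320-P2b_3p carried identical values.

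Other abundant miRNAs differed less. Mir-10-P1c-v1_5p, the highest by mean over the 6 libraries, was at 11660, 10975 and 8975 scaled RPM with F182del and at 13768, 9114 and 8377 with D619N, and held 21.8% and 20.4% of the mature reads. Its log2FC was 0.04 (SE 0.23, adjusted p = 0.889) and turned negative in 5 of 15 alternatives. Mir-186_5p passed the test at a log2FC of 0.72 (SE 0.17, adjusted p = 0.0378), inside the fold threshold, and fell to -0.56 with RPM as deposited. The Let-7 family, repressors of growth-promoting genes such as HMGA2, held 1.77 ± 0.348% and 1.61 ± 0.0743%. Of its 9 tested strands 0 were called, beside 18.0% of all tested miRNAs.

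**Figure D4:**
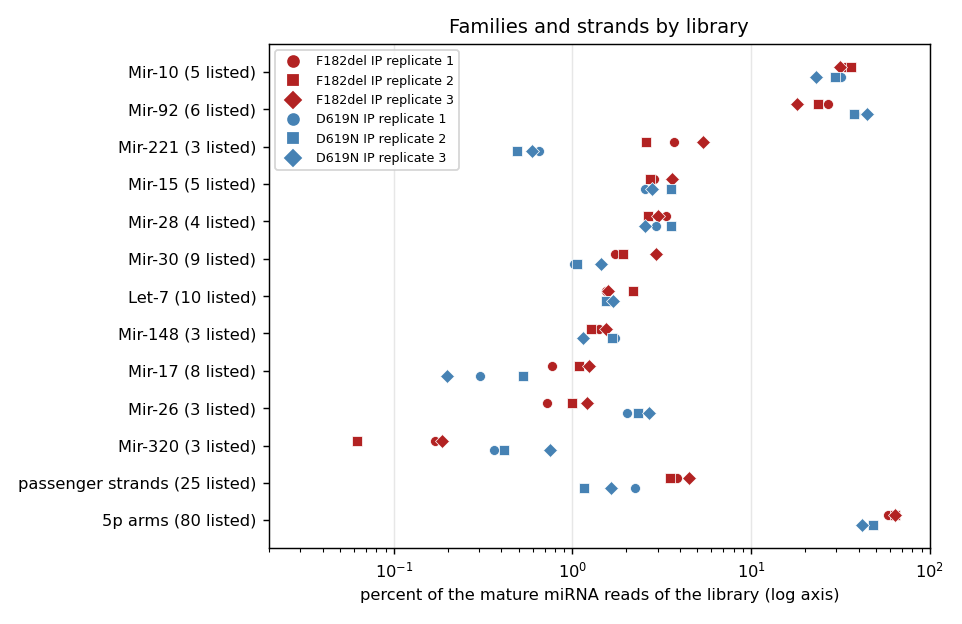
Percent of the mature miRNA reads of each IP library (log axis) held by families, by passenger strands and by 5p arms, with F182del in red, D619N in blue and 1 symbol per replicate. The Mir-92 and Mir-26 families lie further right with D619N, the Mir-221 and Mir-17 families and the passenger strands with F182del, and the Let-7 family overlaps.

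Passenger strands took a larger part of the mature reads with F182del, at 3.85%, 3.50% and 4.50% against 2.23%, 1.17% and 1.64% with D619N, and the libraries did not overlap. The wild-type mean was 2.61 ± 0.363%. Mir-221-P1a_5p* alone held 1.39% and 0.0912%, and without it the other passenger strands held 2.17% to 2.83% with F182del and 1.17% to 2.06% with D619N. Of 25 passenger strands listed, 22 were tested and 5 were called, all higher with F182del and all at 0 with D619N, which is read beside the 13.3% of all tested miRNAs called in that direction. Of the 25, 9 were at 0 in all D619N libraries, as were 16 of the 110 strands without an asterisk, and the D619N libraries were the shallower. The difference was not the same for every hairpin. Mir-10-P1c-v1_3p*, named here after its values were seen, was at 23.6, 0 and 49.1 scaled RPM with F182del and at 242, 296 and 261 with D619N (log2FC -4.64, SE 1.45, adjusted p = 0.0743), and it was called in 6 of 15 alternatives.

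The ratio of passenger to guide was tested for 22 hairpins, and 1 was called (4.55%). With the replicate number as a block in the fit, 0 were called. For Mir-30-P1d the passenger made up 37.5%, 30.8% and 16.0% of both strands with F182del and 0% in all 3 D619N libraries. These shares rested on 32 passenger and 113 guide reads against 0 and 38 (adjusted p = 0.00416). The size of this ratio depends on the pseudocount, and 0 of 38 reads allows a passenger share of up to 7.89% with D619N. The guide, Mir-30-P1d_5p, was at 118, 139 and 196 scaled RPM against 158, 209 and 166 (log2FC -0.26, SE 0.30, adjusted p = 0.551).

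By arm, 5p strands held 58.1%, 64.0% and 64.2% of the mature reads with F182del and 48.4%, 48.0% and 41.8% with D619N. The Mir-92 strands above are mostly 3p arms, and without that family the 5p share was 80.4 ± 2.91% and 76.4 ± 1.77%, with the libraries still apart by less than 1 percentage point.

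The shares with wild-type AGO2 are given beside those of the variants. Mir-577_5p held 0.662% of the mature reads with F182del, 0.0776% with D619N and 0.786% with wild type, and Mir-221-P1a_3p held 2.35%, 0.400% and 1.91%. Mir-191_5p held 2.65%, 0.770% and 1.87%. For these 3 the F182del mean was the nearer to wild type, whose SDs were 0.317, 0.499 and 0.943 percentage points in that order. For Mir-191_5p this spread was wide beside the differences between the means. Mir-92-P2d_3p held 1.07% with F182del, 3.26% with D619N and 1.38% with wild type, again nearer to F182del. Mir-320-P1_3p held 0.124%, 0.397% and 0.384%, where D619N was the nearer, and Mir-26-P1_5p held 0.465%, 1.17% and 0.856%, with wild type between the variants. These mean shares are given as a description with no test.

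The study's text singled out 5 miRNAs as bound less by variants than by wild-type AGO2. It named Mir-1910_5p*, Mir-345_5p, Mir-589_5p and Mir-769_5p for both F182del and D619N, and Mir-375_3p for F182del. None of the 5 was called between F182del and D619N, which is a different comparison. Mir-769_5p (log2FC 3.24, SE 1.64, adjusted p = 0.181), Mir-589_5p (2.99, SE 1.48, adjusted p = 0.175), Mir-345_5p (2.55, SE 1.65, adjusted p = 0.308) and Mir-375_3p (-2.69, SE 1.40, adjusted p = 0.195) were fitted with SEs above 1 on the log2 scale. Mir-1910_5p* had 3 reads with F182del and 0 with D619N and was not tested. The test therefore does not show that the variants bind them alike.

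In the input, which holds the small RNAs of the whole lysate, 0 of 108 miRNAs were called between F182del and D619N (0%, limma), with 3 at an unadjusted p below 0.05. The input of D619N replicate 1 had 17118 reads, of which 817 were from mature miRNAs. With an F182del input left out, 4 to 7 were called, all higher with F182del. Mir-191_5p was at 61.8, 101 and 119 scaled RPM in the F182del inputs and at 78.9, 117 and 76.5 in the D619N inputs (log2FC 0.02, SE 0.30). Mir-92-P2d_3p was at 77.3, 78.7 and 52.5 against 78.9, 77.4 and 80.9 (log2FC -0.21, SE 0.25), and the Mir-26 pair had a log2FC of -0.02 (SE 0.33). Mir-577_5p was at 20.1, 11.4 and 8.08 against 0, 9.98 and 20.6 (log2FC 1.11, SE 1.08), with the 0 in the D619N library of 817 mature reads.

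**Figure D5:**
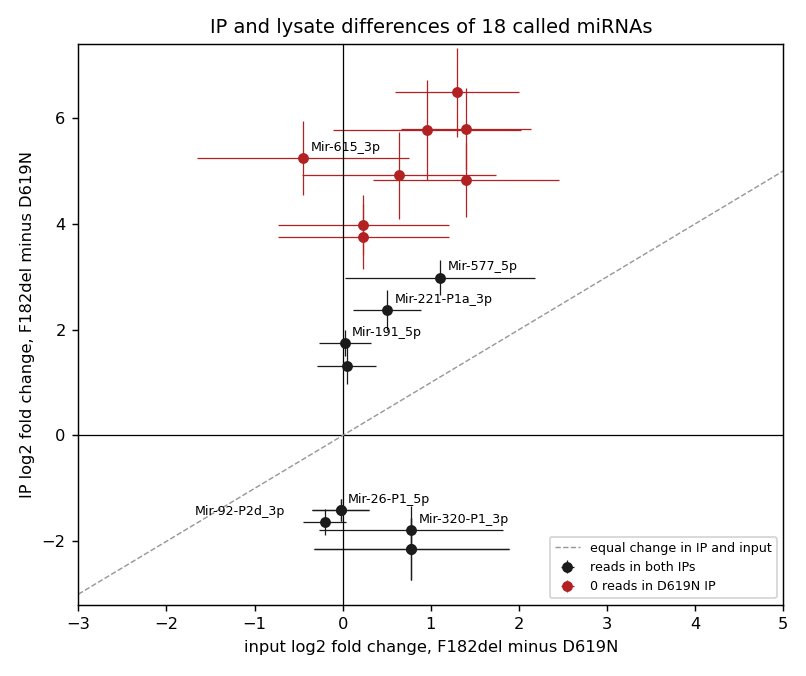
Log2 fold change between F182del and D619N in the IP against that in the input for the 18 called miRNAs tested in both, with standard errors as bars. Mir-191_5p, Mir-92-P2d_3p and Mir-26-P1_5p lie close to 0 on the input axis and away from it on the IP axis, and the red points are at 0 reads in the D619N IP.

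A test of whether the IP difference exceeded the lysate difference, the interaction of fraction and variant over 12 libraries, called 4 of 133 miRNAs (3.01%). They were Mir-191_5p (1.89, SE 0.41, adjusted p = 0.0148), Mir-193-P1a_5p*, Mir-17-P4d_3p* and Mir-576_5p. The last 3 were at 0 in all 6 inputs and in all D619N IP libraries, so that no difference between fractions can be read for them. None of the 4 was called when any 1 of the D619N replicates was left out, and the Mir-191_5p value then lay between 1.76 and 1.89. Over all 133 miRNAs, 28 had an unadjusted p below 0.05. In the Flag/HA-empty IP libraries together, Mir-191_5p had 11 reads, Mir-221-P1a_3p 8, Mir-26-P1_5p 3, and Mir-577_5p and Mir-92-P2d_3p 0. These libraries were shallow, with 18032 to 48080 reads each. In RPM as deposited, the empty mean of Mir-191_5p was 119, against 843 with F182del and 633 with D619N. That of Mir-26-P1_5p was 55.5, against 146 and 1084. Mir-92-P1a_3p had 130 reads, or 1631 RPM against 3223 and 16703.5. No background was subtracted.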

How the data were processed

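The authors processed 36 bp single-end reads with sRNAbench and MirGeneDB 2.1 (GRCh38 per the labels) and deposited RPM, which relate each miRNA to all reads of its library. The terms minExpr1 and RCadj in the table's name, and how reads of several miRNAs were divided, are not given in the sources used here, and 22 miRNAs form 11 sets with identical values. Reads were inferred from the RPM of 1 read, of which every value was a whole multiple. Since the adjustment behind them is not known, the inferred reads were used for limits and intervals and no count model was run.

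RPM were scaled by the median of ratios over miRNAs above 0 in all libraries of a fit. Linear models with a trend in the eBayes step (limma 3.58.1, R 4.3.3) were fitted to log2(scaled RPM + 1) for miRNAs at 1 or more in at least 2 libraries of a group, with Benjamini-Hochberg adjustment over all tested. The fold change of a rare miRNA on this scale depends on the pseudocount, and can exceed the ratio of means where a library is at 0. Strand ratios were fitted without trend on log2 of passenger over guide CPM plus 1 CPM, computed from the RPM. Fits were tested on simulated data of much greater depth than these libraries. That test therefore does not speak to calls that rest on a group at 0. Bounds and intervals cover counting error only.

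Named were all called miRNAs, the 10 most abundant, both strands of a called hairpin and 5 miRNAs from the study's text. The comparison, the lists and the tests were chosen with earlier results of these data known. To see whether replicate numbers marked pairs, deviations from the mean of each group were correlated between same-numbered libraries. In the input all 3 were above 0.1 (0.147, 0.157 and 0.204), and the blocked fit also called 0. In IP they were 0.146, 0.0670 and -0.0166. All replicate pairs differed beyond sampling noise.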

Additional observations from a re-analysis of the deposited data

Results flagged for a closer look

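The limma test of the interaction of fraction and variant over 12 libraries called 4 miRNAs. Mir-17-P4d_3p* had an interaction of 3.84 on the log2 scale and Mir-193-P1a_5p* of 4.23 (adjusted p = 0.0118 for each). Mir-576_5p had one of 2.95 (adjusted p = 0.0118). These 3 were at 0 in all inputs and in all D619N IP libraries, with 20, 34 and 11 reads in F182del IP, so that the test rests on the F182del IP libraries and cannot show a difference between fractions. Mir-191_5p had an interaction of 1.89 (adjusted p = 0.0148), with reads in all 12 libraries. It was not called without any 1 of the D619N replicates or without F182del replicate 1, nor with RPM as deposited.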

How the results depend on the processing

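The planned count models were not run, because whether the deposited values are unadjusted counts is not known. The 23 IP calls became 11 among miRNAs with a mean of at least 100 scaled RPM, and 33 with a pseudocount of 10 RPM, 31 in a fit of all 5 AGO2 groups, 20 scaled to the mature miRNA sum and 19 with RPM as deposited. They numbered 22 to 30 with 1 library left out, and without D619N replicate 1 the split was 27 higher and 3 lower in place of 17 and 6. With the replicate block there were 20, all among the 23. Whether the number pairs the IP libraries was not settled. IP and input of a number come from 1 lysate, and the correlations above were higher in the input than in IP. Input calls went from 0 to 1 without the filter and to 0 to 7 with 1 library left out, and stayed at 0 with the replicate block. Interaction calls went from 4 to 7 with RPM as deposited, to 0 to 9 with 1 library left out and to 5 with the culture as a replicate block, which pairs IP and input of 1 lysate. The strand ratio call was lost with the replicate block (0), and there were 1 to 3 with 1 library left out. The number of miRNAs listed differed by 32 at 1 RPM and by -20.7 at 100 RPM, where an RPM relative to all reads sets the limit. Of 330 values of the 23 called miRNAs under alternatives, 283 kept their call, 47 lost it and 0 changed sign.

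Among named miRNAs not called, some changed sign. Mir-10-P1c-v1_5p moved from 0.04 to -0.0035 in the fit of all 5 groups, to -1.24 with RPM as deposited, and to between -0.23 and 0.31 with 1 library left out (-0.06 without F182del replicate 1, -0.11 and -0.23 without D619N replicates 2 and 3). With RPM as deposited Mir-10-P1b-v1_5p had -0.58, Mir-186_5p -0.56 and Mir-92-P1d_3p -0.51. With 1 library left out Mir-378_3p ranged from -0.71 to 0.26 and Mir-30-P1d_5p from -0.54 to 0.088, each above 0 only without F182del replicate 2 among these 6 fits. The cause was not tested. Depth limits D619N values under 49.5 scaled RPM, the mean of 3 reads.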
